A study of Mus musculus with 8 samples.

Results

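The genes of the JNK kinase cascade were followed in NMuMG cells, an epithelial cell line from normal mouse mammary gland that is widely used to study epithelial-mesenchymal transition (EMT). The 10 genes were taken by name, 1 or more from each tier of the cascade: the JNK kinases Mapk8, Mapk9 and Mapk10, the kinases Map2k4 and Map2k7 that phosphorylate them, the upstream kinases Map3k1, Map3k5 and Map3k7, and the phosphatases Dusp10 and Dusp16. Of the 10, 9 were measured among the 19937 genes of the arrays, each by the probe set with its symbol alone and the highest mean. Map2k7 had no such probe set and was not analysed here.

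RNA came from 8 samples, 2 in each of 4 groups, each hybridised to 1 Affymetrix gene array. Cells carried a control siRNA or an siRNA against Klf4, a zinc finger transcription factor of epithelial cells, and were left untreated or received TGFβ (2 ng/ml) for 2 days. The groups are named siControl, siKlf4, siControl+TGFβ and siKlf4+TGFβ, and what all of them share is the parental line and a transfected siRNA. An siRNA acts on the transcript and leaves the gene in place. In array data of a whole culture, fewer cells that express a gene and less RNA in each cell cannot be told apart.

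JNK is switched on by a relay of kinases. A MAP3K such as Mekk1 (Map3k1), Ask1 (Map3k5) or Tak1 (Map3k7) responds to stress, cytokine or TGFβ receptors and activates Mkk4 (Map2k4) and Mkk7 (Map2k7), which phosphorylate JNK1 (Mapk8), JNK2 (Mapk9) and the mainly neuronal JNK3 (Mapk10). Active JNK phosphorylates Jun and other partners of the AP-1 transcription factor and is switched off by dual specificity phosphatases, of which Mkp5 (Dusp10) and Mkp7 (Dusp16) act on JNK and p38. The arrays measure transcripts of these genes, not kinase activity.

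Promoter sequence is shown for 3 members whose transcript differed between groups, because Klf4 is a DNA-binding protein of the Sp/KLF family, which recognises CACCC and GC boxes. Of the 3, Mapk8 passed the test between TGFβ and none only, not between siKlf4 and siControl. The sequences are RefSeq promoter windows on GRCm38.p6, written 5′ to 3′ on the strand of the gene, and include only bases before the annotated gene model. Map3k1, Map3k5 and Dusp16 differed as well, but their windows held 0 such bases and are not shown. Those windows, inside the gene models, held 1, 2 and 1 CACCC cores and 5, 0 and 5 CCCGCCC boxes. Map2k4 passed no test between groups in the main fit and is not shown. The 250 bases before its gene model held 2 CACCC cores and 0 CCCGCCC boxes, so such motifs were not confined to members that differed. Capitals mark each CACCC and each CCCGCCC, searched on both strands, so that their complements GGGTG and GGGCGGG count as well; no marked match overlapped another. The Dusp10 stretch is chr1:184034131-184034380 on the plus strand, the Mapk9 stretch is chr11:49846501-49846727 on the plus strand, and the Mapk8 stretch is chr14:33447354-33447408 on the minus strand, which ends 195 bases before the start site in the table because another transcript of the gene begins further upstream.
Mapk8: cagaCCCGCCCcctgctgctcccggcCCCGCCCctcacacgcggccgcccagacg
Mapk9: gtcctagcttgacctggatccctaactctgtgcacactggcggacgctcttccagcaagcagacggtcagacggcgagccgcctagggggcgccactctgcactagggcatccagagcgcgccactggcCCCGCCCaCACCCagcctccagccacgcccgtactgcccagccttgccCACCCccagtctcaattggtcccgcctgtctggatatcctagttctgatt
Dusp10: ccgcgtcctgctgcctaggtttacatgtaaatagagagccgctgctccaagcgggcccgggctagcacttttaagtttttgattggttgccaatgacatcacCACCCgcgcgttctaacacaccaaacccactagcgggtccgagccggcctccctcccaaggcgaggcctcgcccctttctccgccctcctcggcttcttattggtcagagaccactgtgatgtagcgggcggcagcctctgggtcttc

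The 55 bases of Mapk8 held 2 CCCGCCC boxes and 0 CACCC cores, and the full window around them held 6 and 0. Of all 32851 promoter windows, 2.85% held CCCGCCC and 14.1% held CACCC in the same stretch, which ends 195 bases before their start site. The Mapk8 stretch adjoins its gene model, so the positions are unlike and these shares do not measure how rare the motifs are there. In full windows of 250 bases the shares were 23.4% and 52.0%. The 227 bases of Mapk9 held 1 CCCGCCC box and 2 CACCC cores, motifs present in 20.5% and 48.8% of windows of that length. The 250 bases of Dusp10 held 1 CACCC core, found in 52.0% of full windows, and 0 CCCGCCC boxes, found in 23.4%. The AP-1 motif TGANTCA was in none of the 3 stretches. These matches describe letters in a window and show no binding.

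The labels were checked on Klf4 itself and on genes that TGFβ is known to induce. Klf4 values were 8.60 and 8.43 in siControl, 8.03 and 7.91 in siKlf4, 7.46 and 7.46 in siControl+TGFβ, and 7.43 and 7.24 in siKlf4+TGFβ, on the log2 scale used for all array values here. Klf4 was thus lower in siKlf4 than in siControl (log2 difference -0.54, limma adjusted p = 0.00369), but between the arrays labelled TGFβ the difference was -0.13 (adjusted p = 0.444), while both TGFβ groups lay below both untreated groups. The mean of 5 TGFβ response genes (Smad7, Skil, Tgfbi, Fn1 and Ltbp1) was 7.90 to 7.98 in siControl and 7.59 to 7.60 in siControl+TGFβ, against 9.49 to 9.56 in siKlf4 and 9.61 to 9.63 in siKlf4+TGFβ. By the siRNA label 4 of the 5 were higher both without TGFβ (Fn1 by 2.70, Ltbp1 by 2.44, Smad7 by 1.44 and Skil by 1.34) and with it, while Tgfbi was not called (0.00, adjusted p = 0.995, and -0.05, adjusted p = 0.848). By the TGFβ label in siControl none of the 5 was higher, and Ltbp1 (-1.30, adjusted p = 8.6e-05) and Smad7 (-0.44, adjusted p = 0.0169) were lower. In siKlf4 Fn1 and Skil were higher with TGFβ, by 0.36 and 0.37. The labels of the siKlf4 and siControl+TGFβ arrays are therefore in doubt, and whether these 2 groups were interchanged was not tested. Were they interchanged, each siKlf4 difference given below without TGFβ would be the TGFβ difference in siControl, each one with TGFβ would be the TGFβ difference in siKlf4, and the reverse, and the interaction alone would keep its value. Group names below mean the arrays labelled so, and no difference is to be read as the effect of Klf4 or of TGFβ beyond these labels. Without the siKlf4 and siControl+TGFβ arrays no pair of groups would differ in 1 label alone, so every comparison below rests on them.

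Of 7 epithelial markers, Krt8, Krt18, Krt7 and Cdh1 were high on every array, and Cldn3 was at 5.83 to 6.37. Epcam, a defining one, was at 3.88 to 4.09 and Cldn7 was at 4.10 to 4.78, low on these arrays. Krt7, Krt18 and Krt8 were higher in siKlf4 without TGFβ (1.11, 0.54 and 0.30) and with it (0.82, 0.55 and 0.36). The other 4 did not pass the test in either comparison. Of 14 markers of leukocytes, endothelium, adipocytes, fibroblasts and neurons, 13 did not pass the test between siKlf4 and siControl. The exception was the fibroblast collagen Col1a1, which was higher (7.49 and 7.59 against 6.21 and 6.62). Across all genes 19.7% passed this test, so most genes of any kind did not. With TGFβ, Col1a1 and the leukocyte gene Cd68 were higher in siKlf4, where 24.2% of all genes passed. Cd68 was lower with TGFβ under either siRNA, where 12.5% of all genes passed in siControl and 12.9% in siKlf4. The mean of the 14 was 4.66 to 4.78 in siControl, 4.81 to 4.96 in siKlf4, 4.70 to 4.71 in siControl+TGFβ and 4.79 to 4.80 in siKlf4+TGFβ. The leukocyte marker Ptprc, the endothelial Pecam1 and the adipocyte Adipoq stayed at or under 4.29 on all 8 arrays. Their part in the results on the cascade was not tested.

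The arrays labelled siKlf4 were compared with those labelled siControl. Without TGFβ, 5 of the 9 measured members passed the test: Map3k1 and Map3k5 were lower, and Mapk9, Dusp10 and Dusp16 were higher. Across all genes 19.7% were called in this comparison, 9.98% higher and 9.71% lower. With TGFβ, 4 of the 9 passed, the MAP3Ks Map3k1 and Map3k5 again lower and the phosphatases Dusp10 and Dusp16 higher, where 24.2% of all genes were called, 12.3% higher and 11.9% lower. The median difference of the 9 members was 0.09 without and 0.26 with TGFβ, beside 0.00 and -0.03 over all genes. A call means an adjusted p under 0.05 in a limma fit over all 8 arrays with Benjamini-Hochberg adjustment over the 19937 genes, and this test stands behind every adjusted p given here.

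**Figure D1:**
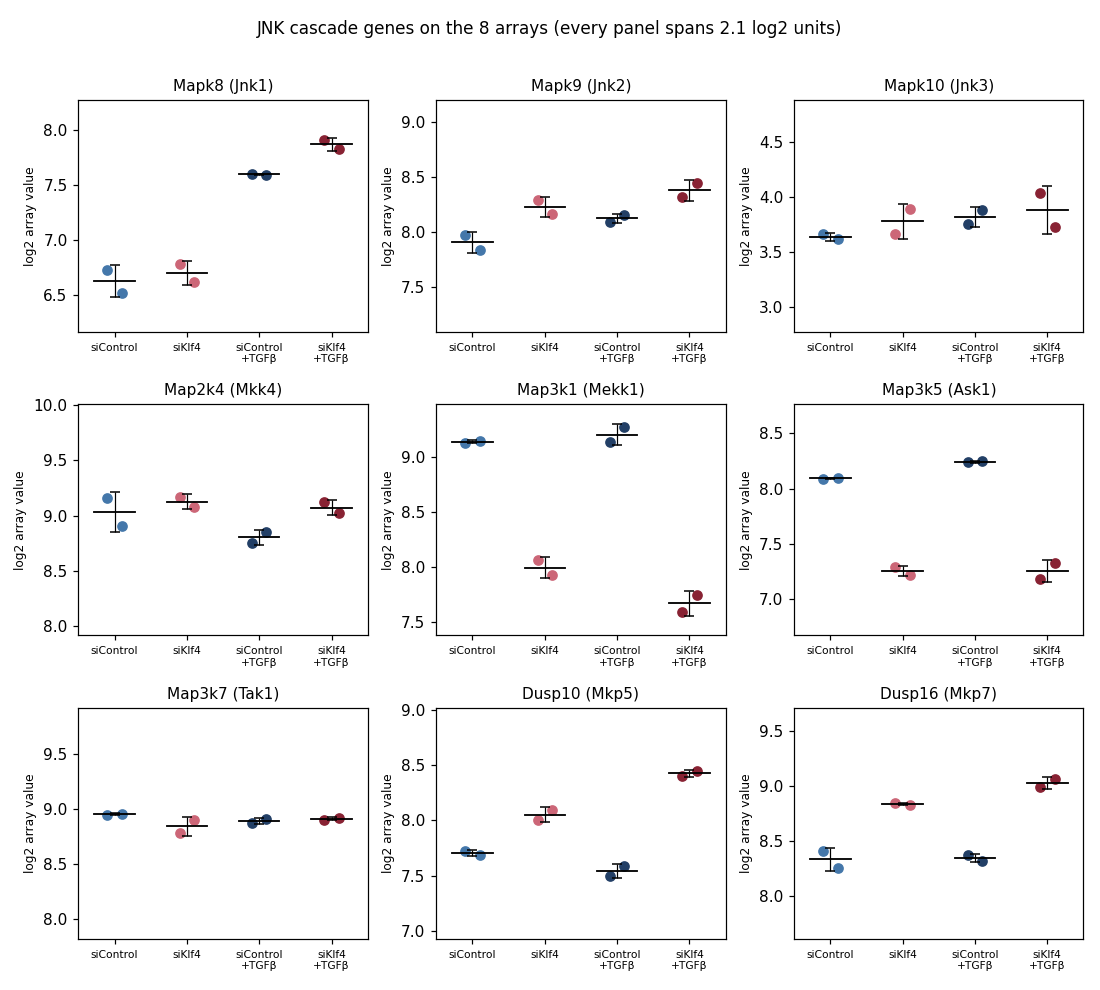
Log2 array values of the 9 measured JNK cascade genes, 1 panel per gene, with the 4 groups on the horizontal axis. Points are single arrays, horizontal bars the mean of 2 arrays and error bars the SD. Map3k1 and Map3k5 lie lower on all 4 arrays with the Klf4 siRNA, Dusp10 and Dusp16 lie higher on them, and Mapk8 lies higher on all 4 arrays labelled TGFβ.

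Mapk8 encodes JNK1, the ubiquitous JNK. Its values were 6.73 and 6.52 in siControl, 6.78 and 6.62 in siKlf4, 7.60 and 7.59 in siControl+TGFβ, and 7.91 and 7.83 in siKlf4+TGFβ. All 4 arrays labelled TGFβ lay above all 4 untreated arrays, while the untreated siControl and siKlf4 arrays overlapped. With the TGFβ label Mapk8 rose by 0.97 on the log2 scale in siControl (1.96-fold, 95% interval 0.75 to 1.19, adjusted p = 4.6e-04) and by 1.17 in siKlf4 (2.25-fold, interval 0.95 to 1.39, adjusted p = 1.3e-04). The siKlf4 difference was 0.07 without TGFβ (interval -0.15 to 0.29, adjusted p = 0.718). With TGFβ it was 0.27 (interval 0.05 to 0.49), and although the groups did not overlap, the adjusted p of 0.0761 missed the threshold. This difference passed with array weights (adjusted p = 0.0235), with the fit restricted to the 4 arrays compared (adjusted p = 0.0276) and with a replicate block (adjusted p = 0.0437). The 4 arrays with the highest Mapk8 values were the 4 with the lowest Klf4 values, and those were the arrays labelled TGFβ.

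Mapk9 encodes JNK2. It read 7.97 and 7.84 in siControl, 8.29 and 8.16 in siKlf4, 8.09 and 8.15 in siControl+TGFβ, and 8.31 and 8.45 in siKlf4+TGFβ. The siKlf4 arrays lay above the matching siControl arrays with and without TGFβ. Without TGFβ the difference was 0.32 (SE 0.0914, 1.25-fold, adjusted p = 0.0365), and with TGFβ 0.26 (adjusted p = 0.0774). The call without TGFβ was lost without siControl replicate 2 (adjusted p = 0.163), without siKlf4 replicate 1 (adjusted p = 0.155) and without any 1 of the TGFβ arrays (adjusted p from 0.0526 to 0.0633). It was also lost in an unmoderated t-test of the contrast (adjusted p = 0.0890), with array weights (adjusted p = 0.0817) and in the fit restricted to the 4 arrays compared (adjusted p = 0.107). The difference with TGFβ, by contrast, passed with array weights (adjusted p = 0.0300) and with the trend and robust options (adjusted p = 0.0318). TGFβ gave differences of 0.22 in siControl (adjusted p = 0.180) and 0.15 in siKlf4 (adjusted p = 0.387).

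Mapk10, the neuronal JNK3, was dim on every array. Its values ran from 3.62 to 4.04 for the brighter of its 2 probe sets and from 2.94 to 3.24 for the other, and its mean was above that of 21.9% of genes. Neither siRNA nor TGFβ gave a call, with differences between 0.06 and 0.18. The first quartile of an array lay at 3.58 to 3.65, so that a difference in so dim a signal was not firmly measurable.

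Map2k4, the gene of Mkk4, read 9.16 and 8.90 in siControl, 9.17 and 9.08 in siKlf4, 8.75 and 8.85 in siControl+TGFβ, and 9.12 and 9.02 in siKlf4+TGFβ. The siControl+TGFβ arrays were the lowest, and the other 3 groups overlapped. The siKlf4 difference with TGFβ was 0.27 (interval 0.04 to 0.50, adjusted p = 0.0983), and the TGFβ difference in siControl was -0.23 (interval -0.46 to 0.00, adjusted p = 0.215). The difference with TGFβ passed with the trend and robust options (adjusted p = 0.0237), with array weights (adjusted p = 0.0347) and in the restricted fit (adjusted p = 0.0405).

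Map3k1 encodes Mekk1, a MAP3K that is also a ubiquitin ligase, and showed the widest range of the members. Its values were 9.13 and 9.15 in siControl, 8.06 and 7.92 in siKlf4, 9.13 and 9.26 in siControl+TGFβ, and 7.59 and 7.75 in siKlf4+TGFβ. Every siKlf4 array lay below every siControl array, whatever the treatment. Map3k1 fell by 1.14 on the log2 scale without TGFβ (SE 0.0934, 2.21-fold, adjusted p = 3.5e-05) and by 1.53 with TGFβ (SE 0.0934, 2.89-fold, adjusted p = 3.9e-06). The span of its 4 group means, 1.53, was wider than that of 96.7% of genes. In siControl the TGFβ difference was 0.06 (adjusted p = 0.761). In siKlf4 the TGFβ arrays lay below the untreated ones, by -0.32 (interval -0.53 to -0.11), with an adjusted p of 0.0542, which passed under 4 alternatives (adjusted p from 0.0100 to 0.0479).

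Map3k5 encodes Ask1, the MAP3K that responds to oxidative stress. It read 8.09 and 8.10 in siControl, 7.29 and 7.22 in siKlf4, 8.24 and 8.25 in siControl+TGFβ, and 7.18 and 7.32 in siKlf4+TGFβ. As for Map3k1, the arrays split by siRNA with no overlap. Map3k5 fell by 0.84 without TGFβ (SE 0.0819, 1.79-fold, adjusted p = 1.0e-04) and by 0.99 with TGFβ (1.99-fold, adjusted p = 2.3e-05). The differences with TGFβ were 0.15 in siControl (adjusted p = 0.310) and 0.00 in siKlf4 (interval -0.18 to 0.19, adjusted p = 0.995).

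Map3k7, the gene of Tak1, which links the TGFβ receptor to JNK and p38, had the narrowest span of group means among the members, 0.11. All 8 arrays lay between 8.78 and 8.96. The siKlf4 difference was -0.11 without TGFβ (interval -0.29 to 0.07, adjusted p = 0.440) and 0.02 with TGFβ (interval -0.16 to 0.20, adjusted p = 0.913). Only 12.4% of genes had a smaller span.

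Dusp10 encodes Mkp5, a phosphatase that prefers JNK and p38. Its values were 7.73 and 7.69 in siControl, 8.004 and 8.099 in siKlf4, 7.50 and 7.59 in siControl+TGFβ, and 8.40 and 8.45 in siKlf4+TGFβ. No group overlapped another, and siKlf4+TGFβ was the highest. Dusp10 rose by 0.34 with siKlf4 alone (SE 0.0805, 1.27-fold, adjusted p = 0.0144) and by 0.88 with siKlf4 under TGFβ (1.85-fold, adjusted p = 4.2e-05). With TGFβ it rose by 0.37 in siKlf4 (1.30-fold, adjusted p = 0.0150), whereas in siControl the difference was -0.16 (adjusted p = 0.254). Without siControl replicate 2 the rise with siKlf4 alone had an adjusted p of 0.0626, without siKlf4 replicate 2 one of 0.0782, and in the restricted fit one of 0.0669. The rise with TGFβ in siKlf4 was lost without siKlf4 replicate 1 (adjusted p = 0.0704) and without either siKlf4+TGFβ array (adjusted p = 0.0742 and 0.117).

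Dusp16, the gene of Mkp7, which shuttles between nucleus and cytoplasm and acts on JNK, read 8.41 and 8.26 in siControl, 8.85 and 8.83 in siKlf4, 8.38 and 8.32 in siControl+TGFβ, and 8.99 and 9.07 in siKlf4+TGFβ. The siKlf4 arrays were above the siControl arrays with either treatment. Dusp16 rose by 0.51 without TGFβ (SE 0.0835, 1.42-fold, adjusted p = 0.00220) and by 0.68 with TGFβ (1.60-fold, adjusted p = 2.8e-04). Differences with TGFβ were 0.01 in siControl (adjusted p = 0.950) and 0.19 in siKlf4 (interval 0.00 to 0.38, adjusted p = 0.214).

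**Figure D2:**
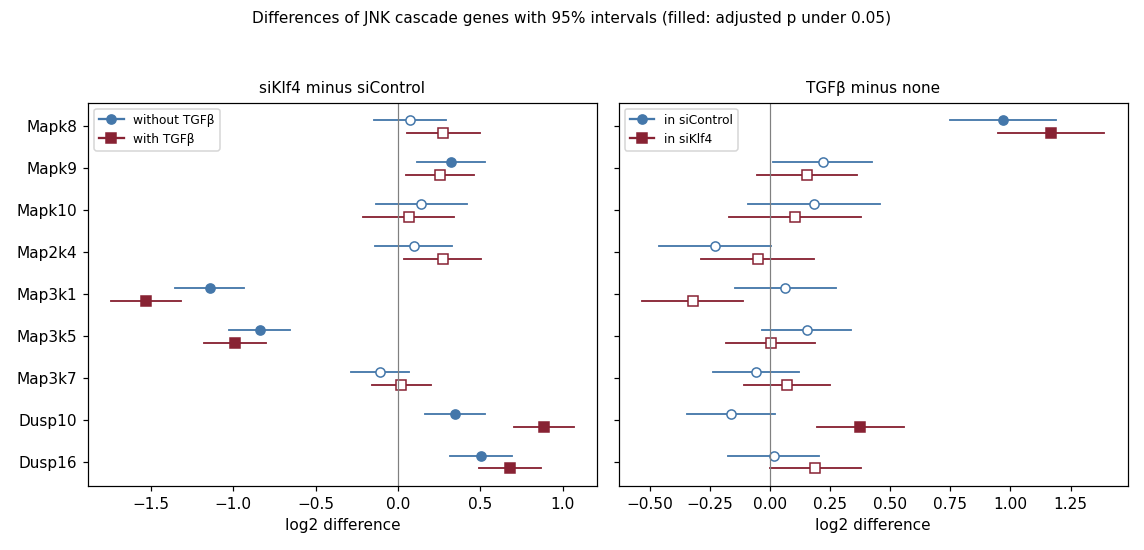
Log2 differences (horizontal axis) of the 9 measured JNK cascade genes with 95% intervals, filled where the adjusted p was under 0.05. The left panel gives siKlf4 minus siControl without TGFβ (circles) and with it (squares), and the right panel gives TGFβ minus no TGFβ in siControl (circles) and in siKlf4 (squares). The siKlf4 differences of Map3k1 reach -1.53 and those of Dusp10 0.88, and of the TGFβ differences those of Mapk8, 0.97 and 1.17, stand farthest from 0.

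For TGFβ the count was smaller. In siControl 1 of the 9 members was called, Mapk8, where 12.5% of all genes were called, 5.81% higher and 6.65% lower. In siKlf4, Mapk8 and Dusp10 were called higher, 2 of 9, beside 12.9% of all genes, 6.01% higher and 6.87% lower. The member medians were 0.06 and 0.10, against 0.02 and -0.02 over all genes. Comparisons for siKlf4 and for TGFβ share arrays, since the siControl arrays, for example, serve as the reference of both.

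Whether the siKlf4 difference changed with TGFβ was tested by the interaction, the siKlf4 difference with TGFβ minus that without. It gave 0 calls among the 9 members, beside 1.52% of all genes, 0.547% higher and 0.978% lower, and 2 members had an unadjusted p under 0.05. For Dusp10 the interaction was 0.54 (SE 0.114, interval 0.28 to 0.80, adjusted p = 0.0601), which passed under 4 alternatives. For Map3k1 it was -0.39 (interval -0.68 to -0.09, adjusted p = 0.255). The interaction of Mapk8 was 0.20 (interval -0.11 to 0.51, adjusted p = 0.630). By unmoderated t-tests of this contrast 0 members were called, and by limma with the trend and robust options 1, Dusp10.

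The other genes of the pathway were read from 6 lists by role, 69 of 71 genes being measured. Of these, 22 were higher and 11 lower in siKlf4 without TGFβ, and 31 were higher and 7 lower with TGFβ. With TGFβ against none, 4 were higher and 18 lower in siControl, and 10 higher and 7 lower in siKlf4. The background shares are those given for the members.

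Among 15 further MAP3K and TAO kinases that can feed Mkk4 and Mkk7, 4 were called higher in siKlf4 without TGFβ and 7 with it. None was called lower, whereas the members Map3k1 and Map3k5 of the same tier were. Some lay lower without a call, such as Map3k6 (-0.23 and -0.29, adjusted p = 0.141 and 0.0561) and Map3k12 (-0.29 and -0.28, adjusted p = 0.118 in both). The list medians were 0.05 and 0.09. Map3k20, the ribosome stress kinase ZAK, read 9.26 and 9.19 in siControl and 10.34 and 10.31 in siKlf4, and with TGFβ 9.04 and 8.91 against 10.23 and 10.08. It rose by 1.10 without (adjusted p = 3.2e-05) and by 1.18 with TGFβ (adjusted p = 1.2e-05). Smaller rises were found for Map3k2, the gene of Mekk2 (0.67 and 0.60), for Map3k4, the gene of Mekk4 (0.26 and 0.50), and for Taok3 (0.35 and 0.45), each passing the test in both comparisons.

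Above the MAP3Ks, 1 of 7 measured genes of MAP4K kinases and small GTPases was higher and 1 lower in each siKlf4 comparison. Map4k4, a kinase linked to cell migration, rose by 0.81 and 0.74, and Map4k1, a kinase mainly of blood cells, fell by 0.40 and 0.49. Among 10 adaptors and MAP3K partners, 2 were higher and 1 lower without TGFβ, and 4 were higher and none lower with it. The 3 Gadd45 genes encode stress proteins that bind and activate Mekk4. Gadd45g read 7.91 and 7.60 in siControl, 9.50 and 9.61 in siKlf4, 7.64 and 7.97 in siControl+TGFβ, and 9.72 and 9.90 in siKlf4+TGFβ, so that all 4 siKlf4 arrays lay above the others. It rose by 1.80 without TGFβ (adjusted p = 2.7e-05) and by 2.01 with it (adjusted p = 8.3e-06). Gadd45a rose by 0.69 and 0.98, and Gadd45b by 1.08 with TGFβ. Tab3, a partner of Tak1, fell by 0.40 without TGFβ (adjusted p = 0.0421).

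Of the 6 scaffold genes, 1 was higher without TGFβ, and 2 were higher and 1 lower with it. Spag9, the gene of JIP4, rose by 0.55 and 0.52. Sh3rf1, the gene of the scaffold POSH, rose by 0.59 with TGFβ, and Sh3bp5, the mitochondrial JNK-binding protein Sab, fell by 0.61.

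Beside Dusp10 and Dusp16, 12 other MAP kinase phosphatases were measured. In siKlf4 without TGFβ 6 of the 12 were higher and 3 lower, and with TGFβ 5 were higher and 3 lower, and the list medians were 0.16 and 0.03. Dusp2, the nuclear phosphatase Pac1, read 6.64 and 6.60 in siControl and 7.93 and 8.15 in siKlf4, and with TGFβ 5.53 and 5.94 against 7.50 and 7.60. It rose by 1.42 (adjusted p = 8.4e-05) and by 1.81 with TGFβ (adjusted p = 1.2e-05). Dusp4, the gene of Mkp2, which acts on ERK and JNK, rose by 1.07 and 1.40. The ERK phosphatase gene Dusp5 rose by 1.07 and 0.92, and Dusp7, the gene of a cytoplasmic ERK phosphatase, by 0.86 and 0.89. Dusp6, the gene of the ERK phosphatase Mkp3, fell by 0.47 and 0.57.

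**Figure D3:**
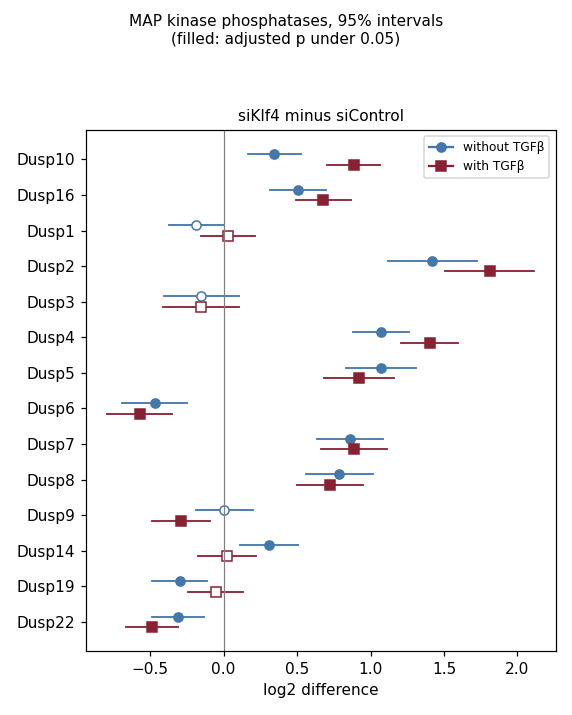
Log2 differences between siKlf4 and siControl (horizontal axis) with 95% intervals for the 14 measured MAP kinase phosphatase genes, without TGFβ (circles) and with TGFβ (squares), filled where the adjusted p was under 0.05. Dusp10 and Dusp16 stand on the positive side with Dusp2 and Dusp4, and Dusp6 stands on the negative side in both comparisons.

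At the end of the cascade, 8 of 19 genes for JNK substrates and AP-1 partners were higher and 6 lower in siKlf4 without TGFβ, and 12 were higher and 2 lower with TGFβ. Bcl2l11 (Bim) and Bmf, pro-apoptotic proteins that JNK phosphorylates, rose by 1.33 and 0.72 without TGFβ and by 1.55 and 1.49 with it. The AP-1 genes Fosl2 and Junb rose by 0.98 and 0.57 without TGFβ and by 1.39 and 1.01 with it. Other AP-1 genes were called lower without TGFβ: Atf3 (-0.79), Fos (-0.76), Fosb (-0.67), Jun (-0.37) and Fosl1 (-0.33). With TGFβ Fos was again lower (-0.38, adjusted p = 0.0287) and Fosl1 was not called (-0.22, adjusted p = 0.149). Atf3 (0.37) and Fosb (0.43) were called higher there. Stmn1, a microtubule regulator, fell by 0.48 and 0.88. The interaction was called for 4 of the 19, all positive, Jun, Atf3, Fosb and Bmf, beside 1.52% of all genes, 0.547% higher and 0.978% lower. Jun, Atf3, Fosb, Fos and Fosl1 are named here after their values were seen. Jun itself, the classical JNK substrate, read 9.49 and 9.28 in siControl, 9.09 and 8.94 in siKlf4, 8.84 and 8.82 in siControl+TGFβ, and 9.52 and 9.51 in siKlf4+TGFβ. It was lower in siKlf4 without TGFβ (-0.37, adjusted p = 0.0223) and higher with TGFβ (0.69, adjusted p = 5.7e-04), an interaction of 1.06 (adjusted p = 0.0111). Without either siControl+TGFβ array, or without siKlf4+TGFβ replicate 2, 0 of the other pathway genes kept an interaction call, and without siKlf4+TGFβ replicate 1 there was 1.

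**Figure D4:**
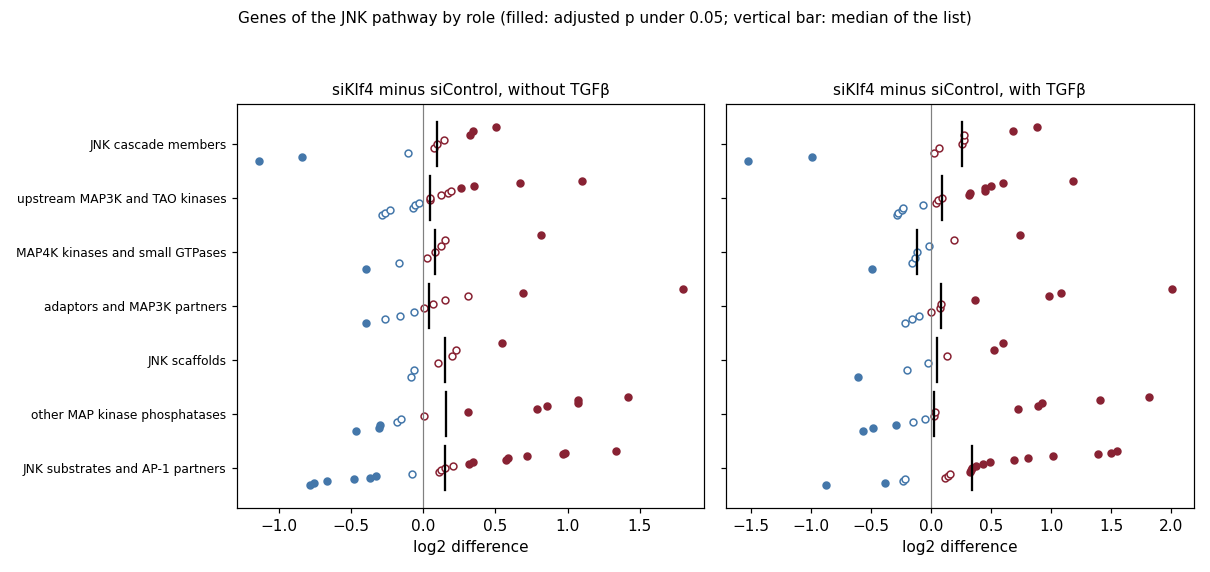
Log2 differences between siKlf4 and siControl (horizontal axis) without TGFβ (left) and with TGFβ (right), 1 point per gene, for the 9 JNK cascade members and the 6 lists of other pathway genes; filled points had an adjusted p under 0.05 and the vertical bar is the median of the list. Of the 15 other MAP3K and TAO kinases, none of the filled points is negative, while the lowest points among the members are Map3k1 and Map3k5.

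The genes whose pattern over the 8 arrays was most like that of Mapk8, by the root mean square difference of log2 values after centring each gene on its own mean, were Rab6b (0.0916), Cnot7 (0.0957), Sec24a (0.114), Elmod2 (0.118) and Arap2 (0.127). Rab6b, for example, had group means of 7.37 in siControl, 7.55 in siKlf4, 8.34 in siControl+TGFβ and 8.50 in siKlf4+TGFβ. For Map3k1, the member with the widest span, they were Lss (0.0749), Rundc3b (0.0770), Ston2 (0.0970), Amdhd1 (0.105) and Lin54 (0.109). The means of Lss, the gene of lanosterol synthase, were 9.23 in siControl, 8.01 in siKlf4, 9.25 in siControl+TGFβ and 7.64 in siKlf4+TGFβ.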

How the data were processed

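RNA of 8 samples was labelled and hybridised to Affymetrix gene arrays. The authors deposited 1 normalized log2 value per probe set and array, made with oligo 1.14.0 according to the submitters' processing notes (RMA; base 2 was read from the range of the values). Array medians lay between 4.90 and 5.00. Replicate arrays correlated at 0.992 to 0.995 over all 34760 probe sets, arrays of different groups at up to 0.991, and 0 pairs were identical. The number of arrays limits the precision. Samples were grouped by their siRNA and treatment labels, which give no batch. Nothing says that the 2 arrays of a group are separate cultures, so a p-value here speaks only of how these samples spread, which may be technical.

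Of 34760 probe sets, 21640 had 1 symbol, 1321 had several and 11799 were not listed, and only the first kind was used; 21553 matched RefSeq by Entrez number, which changed 0 symbols. The probe set with the highest mean was kept for each of 19937 genes. limma 3.58.1 in R 4.3.3 fitted 1 mean per group over all 8 arrays (4 residual degrees of freedom), with 5 contrasts, empirical Bayes moderation and Benjamini-Hochberg adjustment over all genes. The script was tested on simulated data.

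The members and lists were chosen with earlier results of these data known. Named genes are all members, Klf4, up to 4 genes per list with the largest siKlf4 difference among those called without overlap of groups plus the largest called in the opposite direction, and the 5 genes most like Mapk8 and like the member with the widest span. Alternatives were other normalizations, moderation options, array weights and a filter on dim genes. Others were unmoderated t-tests of the contrasts in the same fit, a replicate block and leaving out single arrays.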

Additional observations from a re-analysis of the deposited data

Results flagged for a closer look

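The TGFβ differences of Dusp10 lay in opposite directions under the 2 siRNAs, but the one in siControl was not called (-0.16, limma adjusted p = 0.254). The flag rests on the order of 2 arrays against 2, and the share of all genes with such an order was not counted. Both siControl+TGFβ arrays (7.50 and 7.59) lay below both siControl arrays (7.73 and 7.69), and both siKlf4+TGFβ arrays (8.40 and 8.45) lay above both siKlf4 arrays (8.004 and 8.099). The test of the difference itself, the interaction of 0.54 on the log2 scale, had an adjusted p of 0.0601 in limma and a range of 0.0121 to 0.251 over 16 alternatives.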

How the results depend on the processing

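Each of 17 alternatives was set against the member results, and of 751 comparisons 720 kept their direction and side of the threshold, 15 lost and 16 gained a call, and 0 reversed. The siKlf4 calls of Map3k1, Map3k5 and Dusp16, that of Dusp10 with TGFβ and the TGFβ calls of Mapk8 held in all 17, with a highest adjusted p of 0.0212. Members called higher in siKlf4 without TGFβ numbered 1 when the other 4 arrays were left out of the fit, and those with TGFβ 4 in that same setting, 4 with the trend and robust options and 5 with array weights (main count 2). Interaction calls of members went from 0 to 1 (Dusp10), and members called lower with TGFβ in siKlf4 from 0 to 1 (Map3k1), each under the trend and robust options, quantile normalization, cyclic loess and leaving out the dimmest 30% of genes. Unmoderated t-tests of the contrasts gave 10 (TGFβ in siControl), 9 (TGFβ in siKlf4) and 0 (interaction) other pathway genes against 22, 17 and 4. Of all genes they called 1489, 1702 and 0 against 2484, 2569 and 304. The trend and robust options gave 7 pathway genes and 760 genes in all for the interaction. The cause of these shifts was not tested.

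With 1 array left out at a time, members called higher ranged from 1 to 3 in siKlf4 without TGFβ (1 without siControl replicate 2, which lost Mapk9 and Dusp10) and from 1 to 2 for TGFβ in siKlf4. Other pathway genes called ranged from 10 to 22 for TGFβ in siControl, from 6 to 19 for TGFβ in siKlf4 and from 0 to 3 for the interaction, and all genes called from 1090 to 2545, from 1274 to 2700 and from 28 to 214. The lowest of these came without an array labelled TGFβ. A group left with 1 array is assumed to vary like the others.

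Between siControl and siKlf4 the deviations of the replicates correlated at 0.382, and between the other pairs of groups at -0.0503 to 0.0383. The main fit did not pair arrays in any comparison, that of siKlf4 with siControl included. Whether the replicate numbers mark a shared batch was not tested. In siKlf4 without TGFβ the replicate block left 3 members called higher and 2 lower, as in the main fit. With the replicate block, members called higher in siKlf4 with TGFβ went from 2 to 3, as Mapk8 reached an adjusted p of 0.0437. The interaction needs all groups, so the fit restricted to 2 groups was not run for it.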

Other observations

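The p38 cascade runs parallel to JNK and shares Map2k4, Map3k5 and Map3k7 with it. Of its 8 measured genes 2 were higher and 2 lower in siKlf4 without TGFβ, and 1 was higher and 2 lower with TGFβ. Across all genes 9.98% were called higher and 9.71% lower without TGFβ, and 12.3% higher and 11.9% lower with it. Map2k6, the gene of the p38 kinase Mkk6, read 7.84 and 7.60 in siControl, 7.11 and 6.95 in siKlf4, 7.92 and 7.93 in siControl+TGFβ, and 6.61 and 6.67 in siKlf4+TGFβ, and fell by 0.69 without and by 1.28 with TGFβ (limma adjusted p = 0.00112 and 1.7e-05). Map2k3, the gene of the p38 kinase Mkk3, fell by 0.37 and 0.50. Mapkapk2, the gene of a kinase activated by p38, rose by 0.62 and 0.55, and Mapk11, the gene of p38β, rose by 0.63 without TGFβ.

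In the ERK cascade 6 of 9 genes were measured. Of these, 0 were called by limma in siKlf4 without TGFβ (1 at an unadjusted p under 0.05), beside 19.7% of all genes. With TGFβ 1 was higher, Map2k5, the gene of the kinase above Erk5 (0.29, adjusted p = 0.0235), beside 24.2% of all genes called.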
